A study of Rattus norvegicus with 56 samples.

Results

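MiR-221 and miR-222 are microRNAs cut from neighbouring hairpins on the rat X chromosome. The 3 members described here, miR-221-3p, miR-222-3p and miR-221-5p, were taken by name from the rows of the deposited count tables. The naming rule used no measured value, but the members were chosen with earlier results of these data known. They are 3 of the 682 mature microRNAs listed over all tables. MiR-222-5p, the remaining arm of the pair, was also listed and is given beside them. Small RNA was sequenced in 56 samples of Sprague-Dawley rats on embryonic day 19, with 7 samples in each of 8 groups. The myocardium and amniotic fluid came from the NC, VSD and non-VSD groups, and the maternal serum from the NC and VSD groups. Dams of the DMO group received dimethadione (DMO), the active metabolite of the anticonvulsant trimethadione, by repeated oral gavage in mid-gestation, and NC dams received distilled water. The VSD and the non-VSD fetuses were both chosen from this DMO group. VSD fetuses had a ventricular septal defect and no malformed major vessel. Non-VSD fetuses had been exposed to DMO and had an intact septum, and fetuses with other obvious malformations had been left out by the authors. The myocardium was tissue from wax blocks of the fetal heart, which holds several cell types. The labels do not say whether the samples of a group came from separate dams, and the p-values below measure the spread between these samples.

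MicroRNAs guide a silencing complex to messenger RNAs that pair with the seed, the short stretch near the 5′ end of the microRNA. A hairpin gives a 5p and a 3p arm, and usually one of them, the guide, is kept and the other, the passenger, is degraded. The 3p arms of miR-221 and miR-222 are the guides. They are known in blood vessels, where they repress the stem cell factor receptor Kit in endothelial cells and the cell cycle inhibitors Cdkn1b and Cdkn1c in smooth muscle cells.

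The mature sequences are shown because the seeds separate the members into groups. They were read from the RefSeq annotation of the GRCr8 assembly, in which all 4 arms were found on the plus strand of chromosome X. The seed, bases 2 to 8, is in capitals.
miR-222-5p (chrX:6022642-6022662): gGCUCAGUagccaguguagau
miR-222-3p (chrX:6022682-6022702): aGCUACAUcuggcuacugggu
miR-221-5p (chrX:6023206-6023228): aCCUGGCAuacaauguagauuuc
miR-221-3p (chrX:6023246-6023268): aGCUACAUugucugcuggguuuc
The 3p arms have the same seed. No other of the 724 mature sequences in the annotation has it. They share their first 8 bases, and 11 of 21 positions are identical when they are counted from the 5′ end. The 5p arms differ from the first base on and share the seed with no other annotated microRNA. The Mir222 hairpin lies before the Mir221 hairpin, with 458 bases between them, and both lie within 670 bases.

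Levels were compared across tissues as CPM, the reads of a microRNA scaled to the same total of microRNA reads in every library (1e6). MiR-221-3p was the most abundant member in every tissue and was found in all 56 libraries. In the NC group it had 134 ± 34.3 CPM in the myocardium (SD, n = 7), 1003 ± 318 CPM in the amniotic fluid and 578 ± 55.6 CPM in the maternal serum. The NC libraries reached from 88.2 to 197 CPM (median 124) in the myocardium, from 656 to 1651 CPM (median 885) in the amniotic fluid and from 496 to 667 CPM (median 585) in the serum. The NC myocardium lay below both fluids in every library, whereas the ranges of the 2 fluids touched, with the lowest amniotic fluid library below the highest serum library. Ranked by reads within a library, miR-221-3p stood between place 67 and 176 in the amniotic fluid, 72 and 86 in the serum and 150 and 220 in the myocardium.

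MiR-222-3p, the partner with the same seed, had another order of tissues. In the NC myocardium it had 50.2 ± 17.4 CPM, and the libraries lay between 27.8 and 75.6 CPM (median 43.5). In the NC serum it had 31.1 ± 5.94 CPM, between 23.7 and 40.3 CPM (median 31.0). These ranges overlapped. In the amniotic fluid it was read in 8 of 21 libraries, with 93 reads in all and at most 26 reads in any of them. It had 0 reads in 5 of 7 NC, 5 of 7 VSD and 3 of 7 non-VSD amniotic fluid libraries. A count of 0 allows up to 9.04 CPM in the deepest and 38.4 CPM in the shallowest amniotic fluid library (3 reads), against 27.8 CPM in the lowest NC myocardium library. Such limits and the intervals below cover counting error only.

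MiR-221-5p, the passenger arm of miR-221, was read in all 21 myocardium libraries. It had 11.7 ± 3.83 CPM in the NC myocardium, between 7.33 and 17.5 CPM (median 10.3). In the serum it had 10 reads over 14 libraries, and 8 of them had none. In the amniotic fluid it had 12 reads, of which 11 came from NC replicate 5 and 1 from NC replicate 4, and all VSD and non-VSD libraries were at 0. MiR-222-5p was the rarest arm, with 98 reads over the 21 myocardium libraries, 4 reads over the serum libraries and 8 reads in the amniotic fluid, all in 1 VSD library. The myocardium was thus the only tissue in which all 4 arms were read in most libraries, and its libraries were also the deepest. The limit for a count of 0 was 9.04 to 38.4 CPM in the amniotic fluid and 5.16 to 20.3 CPM in the serum. The myocardium medians were 0.715 CPM for miR-222-5p and 10.03 CPM for miR-221-5p. No fluid library could thus exclude the myocardium level of miR-222-5p, and only the deeper ones could exclude that of miR-221-5p.

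**Figure D1:**
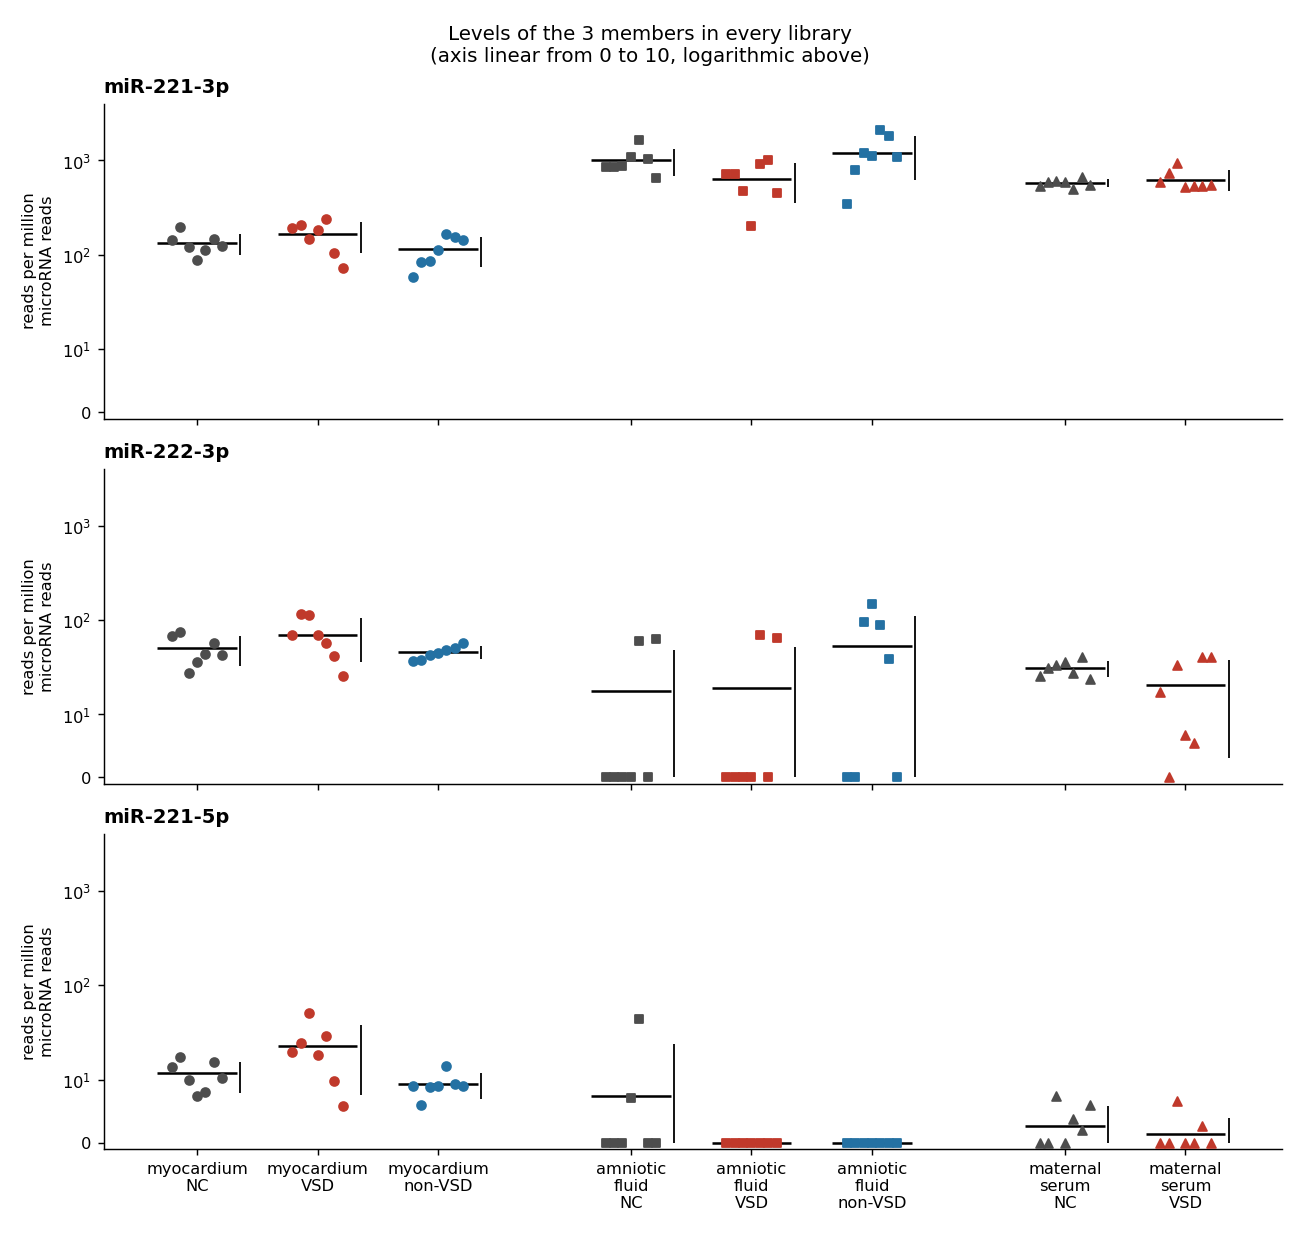
CPM of miR-221-3p, miR-222-3p and miR-221-5p in every library (points) of the 8 groups, with the group mean (horizontal line) and 1 SD either side of it (vertical line, ended at 0). The vertical axis is linear up to 10 CPM and logarithmic above. MiR-221-3p lies between 58.3 and 243 CPM in the myocardium and at 201 CPM or more in both fluids, and miR-221-5p lies at 0 in all VSD and non-VSD amniotic fluid libraries.

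The NC tissues were then compared by edgeR's quasi-likelihood test with TMM scaling, which assumes that most microRNAs are alike between libraries. Here an adjusted p under 0.05 was reached by 78% of 382 tested microRNAs between the NC myocardium and serum, by 79.1% of 235 between the amniotic fluid and serum, and by 72.4% of 369 between the amniotic fluid and myocardium. A called member thus stood with most microRNAs. MiR-221-3p was lower in the myocardium than in the serum, with a log2 fold change of -2.40 (SE 0.18, adjusted p 1.85e-09 by edgeR). It was higher in the amniotic fluid than in the myocardium by 1.57 on the log2 scale (SE 0.28, edgeR adjusted p 8.13e-05). Between the amniotic fluid and the serum the direction depended on the scaling. With TMM it was lower in the amniotic fluid, at -0.76 (SE 0.24, edgeR adjusted p 0.0076), and with library size alone it was higher, at 0.83 (edgeR adjusted p 0.00456). The median of all tested microRNAs moved from -0.03 to 1.57 between these scalings, and the calls over all microRNAs moved from 95 higher and 91 lower to 139 higher and 56 lower. Against the myocardium, the amniotic fluid had 103 higher and 164 lower calls with TMM, and 147 and 98 with library size alone, where the median moved from -0.99 to 0.38.

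The difference of miR-222-3p between the NC myocardium and serum was 0.39 (SE 0.25, edgeR adjusted p 0.16), while it passed with DESeq2 (0.60, adjusted p 0.00863), with library size alone (0.70, edgeR adjusted p 0.0328) and without a filter (0.87, edgeR adjusted p 0.00618). Over its alternatives the adjusted p ran from 0.00618 to 0.252. Between the myocardium and a fluid, miR-221-5p passed the filter on low counts through the myocardium alone, and so did miR-222-3p between the myocardium and the amniotic fluid, so that these had to differ and no test of them is given. Between the amniotic fluid and the serum neither passed the filter. The tissues had different extraction kits, and the amniotic fluid also had another library kit and sequencer, so tissue and kit cannot be told apart.

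The share of the pair's reads taken by miR-222-3p does not depend on the scaling of libraries. Tissue and kit cannot be told apart in it either. Most microRNAs differed between these tissues, and no ratio outside the members was computed to compare it with. Reads of different microRNAs were set against each other as read shares, which are not molar shares. In the NC myocardium, miR-222-3p took 2416 of 8778 reads of the 3p arms, which is 27.5% (95% exact binomial interval 26.6 to 28.5%), and the libraries lay between 18.6 and 32.5% (median 27.7%). In the NC serum it took 93 of 1820 reads, or 5.11% (4.14 to 6.22%), with the libraries between 4.15 and 5.75%. In the NC amniotic fluid it took 20 of 1156 reads, or 1.73% (1.06 to 2.66%), with 5 of 7 libraries at 0 and the highest at 8.77%. The NC myocardium stood above both fluids without overlap. The serum libraries were closely grouped, and the amniotic fluid libraries were spread around them.

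On the scale of the log2 ratio of miR-222-3p to miR-221-3p reads, with 0.5 read added to each, the NC myocardium was higher than the NC serum by 2.73 (SE 0.14) and higher than the NC amniotic fluid in all 7 libraries, with a difference of amniotic fluid minus myocardium of -5.37 (SE 0.79). The difference from the serum had an exact two-sided permutation p of 0.000583, the smallest that 7 against 7 samples allow. Its adjusted p was 0.00291 over 20 ratio tests. For the amniotic fluid against the myocardium no p-value is given, since miR-222-3p passed the filter there through the myocardium alone. The difference of amniotic fluid minus serum was -2.64 (SE 0.78), with an exact permutation p of 0.0169 and an adjusted p of 0.0676. Since 5 of 7 NC amniotic fluid libraries had 0 reads of miR-222-3p, the sizes of both amniotic fluid differences depend on the added 0.5 read.

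The share of miR-221 reads on the passenger arm separated the tissues in the same way, and with the same limits. MiR-221-5p took 566 of 6928 miR-221 reads in the NC myocardium, or 8.17% (7.54 to 8.84%), with the libraries between 6.63 and 9.3%. It took 7 of 1734 in the NC serum, or 0.404% (0.162 to 0.83%), and 12 of 1148 in the NC amniotic fluid, or 1.05% (0.541 to 1.82%). Every NC myocardium library lay above every library of both fluids. The log2 ratio of the 3p to the 5p arm was lower in the NC myocardium than in the serum by 4.14 on average, from 3.52 ± 0.17 against 7.67 ± 1.36 (SD, n = 7). No p-value is given for it, since miR-221-5p passed the filter on low counts through the myocardium alone. In the NC serum 3 of 7 libraries had 0 reads of the 5p arm and none had more than 2. The size of this difference thus depends on the added 0.5 read. In the DMO groups, the amniotic fluid had 0 of 635 miR-221 reads on the 5p arm in the VSD group, which allows a share of up to 0.472% (3 reads, with 0.579% as the upper end of the exact interval), and 0 of 1256 in the non-VSD group, which allows up to 0.239% (0.293% by the exact interval). The 5p share of the NC amniotic fluid came almost wholly from 1 library. Since the 5p arm had fewer than 20 reads in every amniotic fluid group, the differences between these groups are not given.

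**Figure D2:**
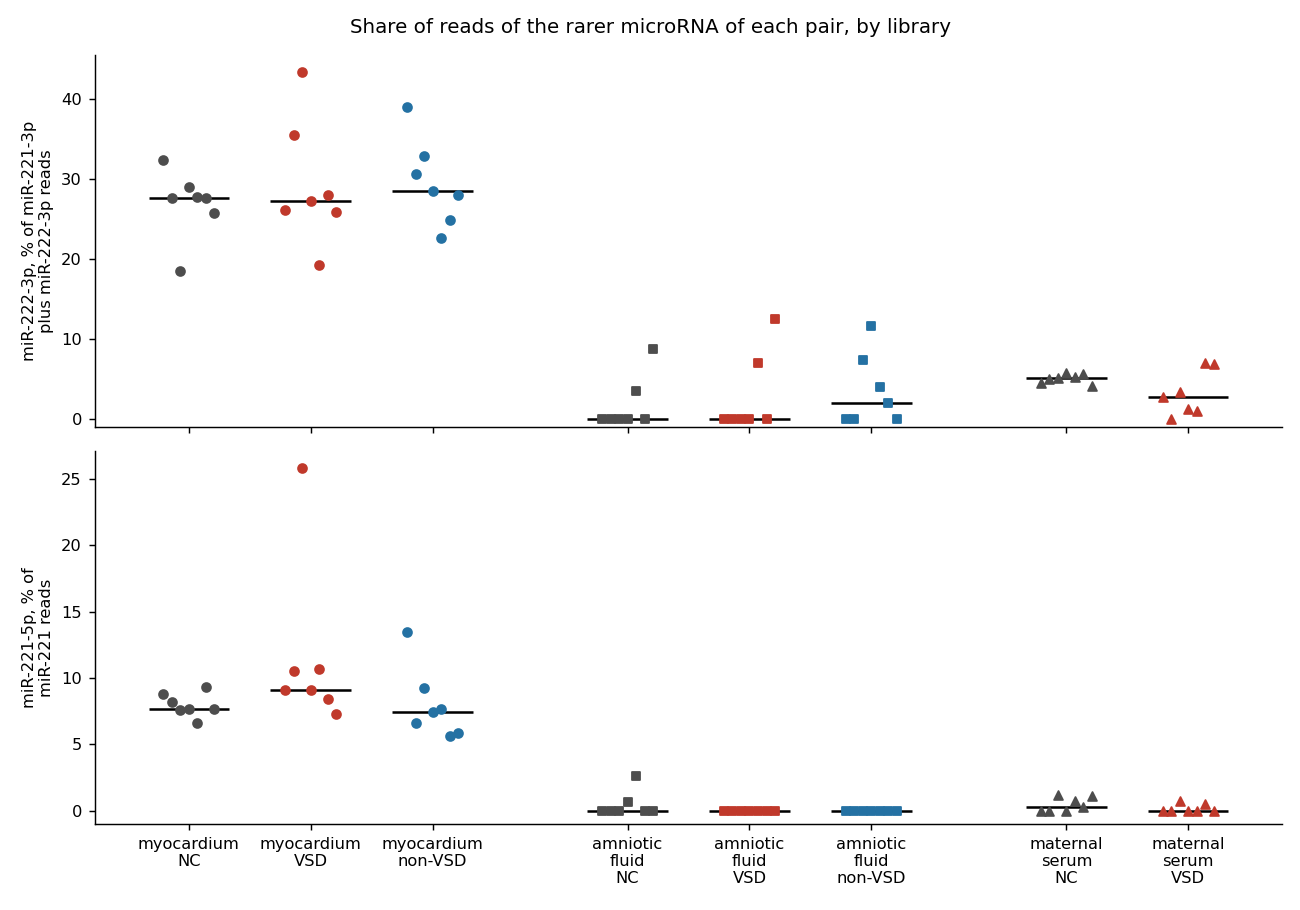
Share of miR-222-3p among the reads of both 3p arms (upper panel, percent) and of miR-221-5p among all miR-221 reads (lower panel, percent) in every library (points), with the group median (line). The myocardium libraries lie between 18.6 and 43.4% in the upper panel and between 5.67 and 25.8% in the lower one, above the highest fluid libraries at 12.5% and 2.61%.

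Within a tissue, the groups were compared on TMM-scaled CPM by the same edgeR test over all microRNAs of the tissue that passed the filter. The study's threshold for a DE-microRNA was taken over, namely a p under 0.05 without adjustment together with a change of 2-fold or more in either direction. No member reached an adjusted p under 0.05 in any of the 7 group comparisons, and 1 member met the DE-microRNA threshold in 1 of them.

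In the myocardium the VSD libraries had the widest range for each member. For miR-221-3p the SD of log2 CPM was nevertheless alike in the VSD (0.533) and non-VSD (0.531) groups. The NC libraries of miR-221-3p reached from 121 to 194 TMM-scaled CPM, with a median of 155. The VSD libraries reached from 69.6 to 205 TMM-scaled CPM, with a median of 140, and the non-VSD libraries from 63.5 to 156, with a median of 102. Thus 2 VSD libraries lay above the NC range and 2 below it, and 4 of 7 non-VSD libraries lay below it. For miR-222-3p the NC range was 44.1 to 78.9 TMM-scaled CPM (median 54.4). Its VSD range was 24.4 to 111 TMM-scaled CPM (median 49.7) and its non-VSD range 35.3 to 55.1 (median 41.0). Here too 2 VSD libraries were above the NC range and 2 below it, and 4 non-VSD libraries were below it. For miR-221-5p the NC range was 10.02 to 15.9 TMM-scaled CPM (median 14.2). Its VSD range was 5.50 to 46.2 TMM-scaled CPM (median 14.2) and its non-VSD range 6.45 to 13.0 (median 8.83). The highest value was that of VSD replicate 3 and the lowest that of VSD replicate 7, and 6 of 7 non-VSD libraries lay below all NC libraries. These counts depend on the scaling and were not set against a share over all microRNAs. Without TMM, miR-222-3p had 37.3 to 56.6 CPM in the non-VSD group, within the NC range of 27.8 to 75.6. MiR-221-5p then had 6.04 to 13.9 CPM, against 7.33 to 17.5 in the NC group.

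Compared with the NC group, the VSD myocardium showed no member past the test. The log2 fold change was -0.11 for miR-221-3p (SE 0.23, edgeR adjusted p 0.809), 0.11 for miR-222-3p (SE 0.29, edgeR adjusted p 0.842) and 0.53 for miR-221-5p (SE 0.37, edgeR adjusted p 0.405). Over all 469 microRNAs tested, 0.426% reached an adjusted p under 0.05 (1 higher and 1 lower, against 32 higher and 6 lower with library size alone and 16 and 30 with DESeq2) and 6.82% were DE-microRNAs. The value of miR-221-5p rested on VSD replicate 3, the smallest myocardium library with 1694811 reads, and was 0.09 without it (edgeR adjusted p 0.875) and 0.70 without VSD replicate 7 (edgeR adjusted p 0.194). With library size alone it was 0.92, and over its alternatives the adjusted p ran from 0.17 to 0.659. The sign of miR-221-3p turned with library size alone, at 0.31, a scaling that moved the median of all tested microRNAs from -0.05 to 0.32. The sign of miR-222-3p turned without VSD replicate 3, at -0.14.

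In the non-VSD myocardium all 3 members had lower values than in the NC group, and none reached an adjusted p under 0.05. The log2 fold change was -0.43 for miR-221-3p (SE 0.22, edgeR p 0.0712, adjusted p 0.335), -0.32 for miR-222-3p (SE 0.17, edgeR p 0.0791, adjusted p 0.364) and -0.54 for miR-221-5p (SE 0.20, edgeR p 0.0157, adjusted p 0.152). On the TMM scale miR-221-5p was below the NC median in 7 of 7 libraries. An unadjusted p under 0.05 was reached by 17.5% of the 456 microRNAs tested, an adjusted p under 0.05 by 0.219% (1 higher, against 21 higher and 27 lower with DESeq2), and 4.17% were DE-microRNAs. With DESeq2 the adjusted p of miR-221-5p was 0.0339 at a log2 fold change of -0.59, and over its alternatives it ran from 0.0339 to 0.482. With library size alone the 3 values shrank to -0.21, -0.14 and -0.34. The 2 comparisons share the NC samples.

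The VSD and non-VSD myocardium, both exposed to DMO, were set against each other in a fit that also held the NC group. The largest difference was that of miR-221-5p, which was higher in the VSD group by 1.11 on the log2 scale (SE 0.33, edgeR p 0.00271, adjusted p 0.426). It met the DE-microRNA threshold and had the second lowest p of the 483 microRNAs tested. Of all tested, 11.6% had an unadjusted p under 0.05, 5.18% were DE-microRNAs and 0% reached an adjusted p under 0.05 by edgeR, with 0 by DESeq2 and 0 by limma too and 56 at an unadjusted p under 0.05. In the VSD group 5 of 7 libraries lay above all non-VSD libraries and VSD replicate 7 lay below them all. Without VSD replicate 3 the difference was 0.71 (edgeR p 0.0167), which is under a fold of 2, and without VSD replicate 7 it was 1.29 (edgeR p 0.000189, adjusted p 0.092). It was also under a fold of 2 with limma (0.83, p 0.0126) and with the replicate number as a block (0.95, edgeR p 0.0137), and with only the 2 DMO groups in the fit it was 1.07 (edgeR p 0.00957) and stood at place 23 of 474. Over its alternatives the adjusted p ran from 0.191 to 0.563. MiR-221-3p differed by 0.36 (SE 0.24, edgeR adjusted p 0.483) and miR-222-3p by 0.48 (SE 0.26, edgeR adjusted p 0.453), and for each 6 of 7 VSD libraries lay above the non-VSD median.

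The read shares of the myocardium differed less between groups than between tissues. MiR-222-3p took a pooled 27.5% of the 3p reads in the NC, 27.7% in the VSD and 29.2% in the non-VSD group. The log2 ratio of miR-222-3p to miR-221-3p differed from the NC group by 0.15 in the VSD group (SE 0.24, exact permutation p 0.565) and by 0.18 in the non-VSD group (SE 0.19, exact permutation p 0.374). The share of miR-221-5p was 10.1% in the VSD group and 7.71% in the non-VSD group, against the 8.17% of the NC group. VSD replicate 3 stood at 25.8% (87 of 337 reads, 21.2 to 30.8%), and the other 6 VSD libraries lay between 7.32 and 10.6%. The log2 ratio of the 3p to the 5p arm was lower by 0.47 in the VSD than in the NC group (SE 0.28), with an exact permutation p of 0.0402 and an adjusted p of 0.115 over 20 tests, and without VSD replicate 3 the difference was -0.21 (exact permutation p 0.0787). It differed by 0.04 between the non-VSD and NC groups (exact permutation p 0.832) and by -0.51 between the VSD and non-VSD groups (exact permutation p 0.127). In replicate 3, miR-222-3p also took its highest myocardium share, 43.4% (192 of 442 reads, 38.8 to 48.2%). Every difference of a read ratio between groups of a tissue had an adjusted p of 0.115 or more.

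**Figure D3:**
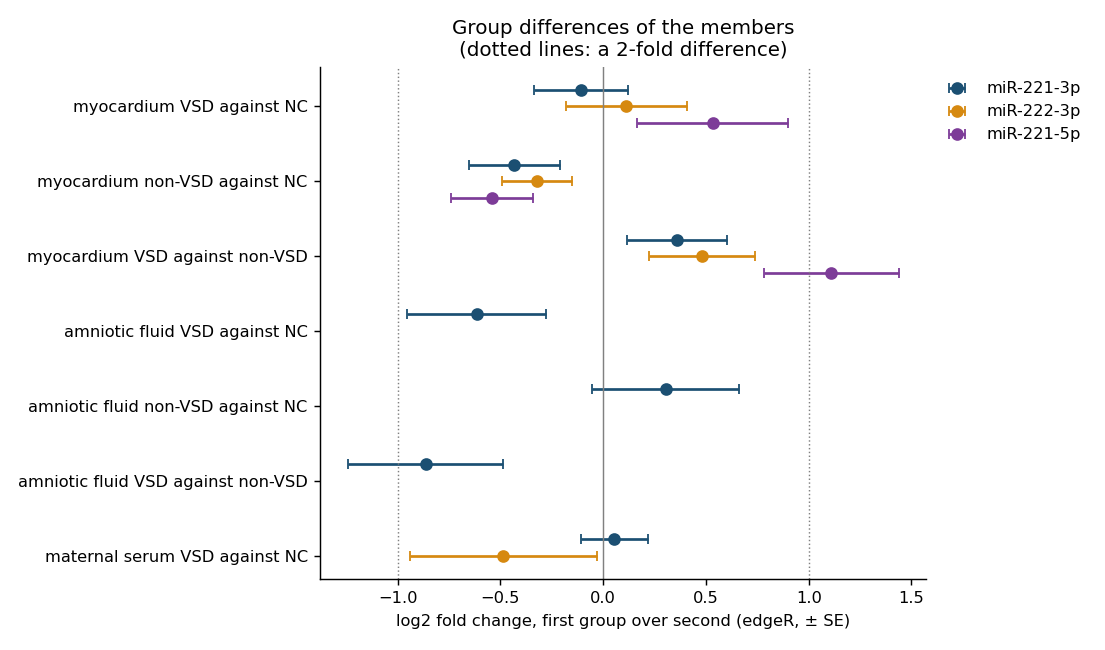
Log2 fold change of each tested member (points, edgeR) with its SE (bars) in the 7 group comparisons, the first group over the second. Dotted lines mark a fold of 2 either way. Only miR-221-5p between the VSD and non-VSD myocardium lies beyond a dotted line, at 1.11, and miR-221-3p of the amniotic fluid lies at -0.62, 0.30 and -0.86.

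In the amniotic fluid only miR-221-3p passed the filter on low counts. The NC libraries reached from 622 to 1774 TMM-scaled CPM, with a median of 868. The VSD libraries reached from 244 to 1124 TMM-scaled CPM (median 697) and the non-VSD libraries from 350 to 2081 (median 1130.1). The 3 groups overlapped, 3 VSD libraries lay below all NC libraries, and all 7 VSD libraries lay below the non-VSD median. Compared with the NC group it was lower in the VSD group by a log2 value of -0.62 (SE 0.34, edgeR p 0.0842, adjusted p 0.424) and differed by 0.30 in the non-VSD group (SE 0.36, edgeR adjusted p 0.726). Neither passed the test. The VSD and non-VSD groups differed by -0.86 (SE 0.38, edgeR p 0.031, adjusted p 0.339), which did not reach a fold of 2.

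In the VSD amniotic fluid, 0% of the 245 microRNAs tested reached an adjusted p under 0.05 by edgeR, with 33 at an unadjusted p under 0.05 (13.5%), with 0 by DESeq2 and 1 by limma, and 6.94% were DE-microRNAs. In the non-VSD amniotic fluid these shares were 4.96% and 12.4% of 242. Between the VSD and non-VSD groups, 0% of 273 reached an adjusted p under 0.05 by edgeR, with 6 by DESeq2 and 0 by limma, 10.6% had an unadjusted p under 0.05 (29 microRNAs) and 3.3% were DE-microRNAs. The difference of miR-221-3p between the VSD and non-VSD groups stayed negative with each sample left out, from -1.03 to -0.66, and the value against the NC group ran from -0.78 to -0.41. The latter end was reached without NC replicate 5, the highest NC library. MiR-222-3p took 18 of 653 reads of the 3p arms in the VSD group, or 2.76% (1.64 to 4.32%), and 55 of 1311 in the non-VSD group, or 4.2% (3.18 to 5.43%). Its log2 ratio to miR-221-3p differed from the NC group by 0.61 (SE 1.12) and 1.09 (SE 1.15), with exact permutation p-values of 0.584 and 0.356.

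In the maternal serum, miR-221-3p varied least. The NC libraries reached from 551 to 639 TMM-scaled CPM, with a median of 575, and the VSD libraries from 457 to 778, with a median of 617. The NC range lay within the VSD range, and the log2 fold change was 0.05 (SE 0.16, edgeR adjusted p 0.894). MiR-222-3p had 8 to 20 reads in each NC library. In VSD replicates 1 to 7 it had 5, 0, 10, 1, 2, 15 and 13 reads. On the TMM scale the NC libraries lay between 24.3 and 38.5 CPM, and 4 of 7 VSD libraries lay below and 2 above that range. The log2 fold change was -0.49 (SE 0.45, edgeR adjusted p 0.668). Without VSD replicate 2, the library with 0 reads, it was -0.30, and without VSD replicate 7 it was -0.83 (edgeR adjusted p 0.571). With limma it was -1.34 (adjusted p 0.394), and over its alternatives the adjusted p ran from 0.394 to 0.748. Of the 219 microRNAs tested, 0% reached an adjusted p under 0.05 by edgeR, with 30 at an unadjusted p under 0.05 (13.7%), 4 by DESeq2 and 0 by limma, and 4.57% were DE-microRNAs.

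The VSD serum libraries held fewer reads, between 147609 and 370867 against 271578 and 581350 in the NC group, so the shares within a library bear more directly on miR-222-3p. Its share of the 3p reads in VSD replicates 1 to 7 was 2.84, 0, 3.42, 1.28, 1.01, 7.01 and 6.88%, against 4.15 to 5.75% in the NC libraries. The exact intervals of single libraries were wide, from 1.81 to 8% in the lowest NC library (8 of 193 reads) and from 2.79 to 10.3% in the highest (10 of 174). In the VSD group, replicate 5 (2 of 199 reads) had an interval of 0.122 to 3.58%. It lay below the lowest NC share but overlapped the interval of that NC library. Replicate 6 (15 of 214) had one of 3.98 to 11.3%. In replicate 2 a count of 0 allows up to 18.0 CPM, under the lowest NC library at 23.7 CPM. Thus 5 VSD shares lay below every NC share and 2 above every one. Pooled, the share was 46 of 1270 reads, or 3.62% (2.66 to 4.8%). The log2 ratio to miR-221-3p was lower in the VSD group by 1.12 on average (from -5.29 ± 1.51 against -4.17 ± 0.17, SD, n = 7), with an exact permutation p of 0.0659 and an adjusted p of 0.146 over 20 tests. Without VSD replicate 2 the difference was -0.68 (exact permutation p 0.1235), and without VSD replicate 6 it was -1.38 (exact permutation p 0.0122). Of the passenger arm the NC libraries held 7 reads and the VSD libraries 3, too few for a comparison.

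Whether the change of a member differed between tissues was tested on mean log2 TMM-scaled CPM, with 5 comparisons. Group labels were permuted within each tissue, which takes the tissues as unrelated samples. The labels do not say whether samples of different tissues share a dam. The change of miR-221-3p in the VSD group was -0.68 in the amniotic fluid and 0.04 in the serum. The difference was -0.72, with a permutation p of 0.0451 and an adjusted p of 0.226, and it did not pass. The other 4 comparisons, in which the change in the myocardium was set against that in a fluid, had differences between -0.64 and 0.83 and permutation p-values of 0.15 or more.

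Next, the members were compared with each other over the libraries of a tissue, after each value had been centred on the mean of its group. In the 21 myocardium libraries, miR-221-3p and miR-221-5p, the arms of the same hairpin, had a Pearson r of 0.60 (permutation p 0.0124, adjusted 0.0175) and a Spearman rho of 0.68 (permutation p 0.00239, adjusted 0.00956). Without the 2 libraries farthest from the median of miR-221-3p, VSD replicate 7 and non-VSD replicate 1, r was 0.52 (permutation p 0.0248) and rho 0.74 (permutation p 0.00046). MiR-221-3p and miR-222-3p, from the neighbouring hairpins, had an r of 0.59 (permutation p 0.0131, adjusted 0.0175) and a rho of 0.54 (permutation p 0.0189, adjusted 0.0298). Without the same 2 libraries r was 0.41 (permutation p 0.0789) and rho 0.47 (permutation p 0.0506), so this relation rested on them. MiR-222-3p and miR-221-5p had an r of 0.79 (permutation p 0.00493, adjusted 0.0175) and a rho of 0.56 (permutation p 0.0223, adjusted 0.0298), and without VSD replicates 2 and 7 r was 0.69 (permutation p 0.0155). Its rho was then 0.45 (permutation p 0.0823), so that by rank this relation rested on those libraries. VSD replicate 3, the myocardium library highest in miR-221-5p, stayed in, and no relation in the myocardium was computed without it. In the 14 serum libraries, miR-221-3p and miR-222-3p had an r of 0.38 (permutation p 0.368) and a rho of 0.56 (permutation p 0.0603). These were 4 relations, and all values of a library share its scaling factor.

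**Figure D4:**
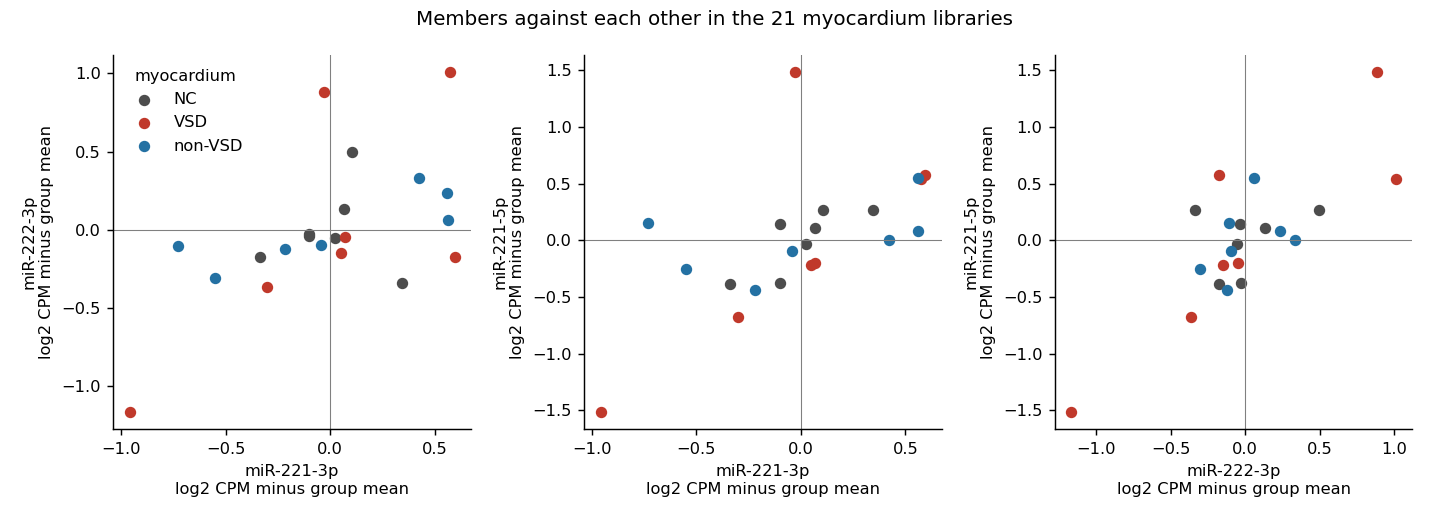
Log2 TMM-scaled CPM of 1 member against another in the 21 myocardium libraries (points, coloured by group), each minus the mean of its group. The points run from lower left to upper right in all 3 panels (r of 0.59, 0.60 and 0.79), and the VSD libraries reach farthest from the centre.

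The place of the partner among all tested microRNAs was used as a description. In the myocardium, miR-221-5p was the second most like miR-221-3p by Spearman's rho of the centred values, among 482 microRNAs, and miR-222-3p was the 14th. The most alike was miR-145-3p (rho 0.77 over 21 libraries), an arm of the smooth muscle microRNA miR-145, and the third was miR-135a-5p (rho 0.67). The microRNAs most like miR-222-3p in the myocardium were miR-122-5p, a liver microRNA (rho 0.64), let-7a-2-3p (rho 0.62) and miR-338-5p (rho 0.58). MiR-221-5p and miR-221-3p stood at the 4th and 7th place for miR-222-3p. In the amniotic fluid, miR-3557-5p, miR-434-5p and miR-540-3p were most like miR-221-3p (rho 0.77, 0.74 and 0.72 over 21 libraries). In the serum these were miR-30a-3p, miR-138-5p and let-7g-5p (rho 0.64 each over 14 libraries), and for miR-222-3p they were miR-18a-5p (rho 0.61), miR-29a-3p (rho 0.59) and miR-221-3p itself (rho 0.56).

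MiR-221 and miR-222 belong to a wider set of microRNAs known from the vessel wall, of which 25 others were listed, among them miR-126 of the endothelium, miR-143 and miR-145 of smooth muscle and the miR-23, miR-24 and miR-27 group. In the myocardium 23 of the 25 were tested. None was called in the VSD group by edgeR, with 3 higher and 3 lower at an unadjusted p under 0.05, which 90 of all 469 microRNAs tested reached (19.2%). DESeq2 called 4 of the list, against 46 of all 469 (9.81%), and limma 0. Library size alone called 5 of the list, all higher, against 32 higher and 6 lower of all 469. The lowest p-values were those of miR-218a-5p (log2 fold change 0.61, edgeR adjusted p 0.0803) and let-7f-5p (-0.47, edgeR adjusted p 0.0997). In the non-VSD group edgeR called 1, against 0.219% of all 456, and limma called 0 of the list and 0 of all. DESeq2 called 7, against 48 of all 456 (10.5%). Library size alone called 5, all higher, against 21 higher and 1 lower of all. By edgeR 6 were higher and 2 lower at an unadjusted p under 0.05, which 17.5% of all 456 reached. MiR-218a-5p, hosted by the Slit genes, rose by 0.88 (edgeR adjusted p 0.0427), and miR-126a-3p, the endothelial microRNA, had a value of 0.77 (edgeR adjusted p 0.091). Its value was positive where those of the miR-221 and miR-222 members were negative, and none of these passed. The median log2 fold change of the list was 0.10 in the VSD and 0.02 in the non-VSD group, against -0.05 and -0.07 over all microRNAs tested.

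In the non-VSD amniotic fluid, 2 of 19 tested list members passed, namely miR-126a-3p, which rose by 1.54 (edgeR adjusted p 0.0464), and miR-27b-3p, which fell by 1.41 on the log2 scale (edgeR adjusted p 0.0272). Over all 242 microRNAs tested 12 were called (4.96%). DESeq2 called 3 of the list, against 29 of all 242 (12%), and limma 1, against 5 of all 242 (2.07%). In the VSD amniotic fluid 0 of 19 passed by edgeR, DESeq2 and limma, 3 were lower at an unadjusted p under 0.05 (13.5% of all tested), and the lowest p-values were those of miR-27b-3p (-0.71, edgeR adjusted p 0.23) and miR-10a-5p (-0.63, edgeR adjusted p 0.23). In the serum 0 of 20 passed by edgeR, DESeq2 and limma, and 0 had an unadjusted p under 0.05, with miR-21-5p (-0.30, edgeR adjusted p 0.489) and miR-23b-3p (-0.32, edgeR adjusted p 0.538) lowest in p. Between the VSD and non-VSD groups 0 of 23 passed in the myocardium and 0 of 19 in the amniotic fluid by edgeR, DESeq2 and limma, with 4 and 3 at an unadjusted p under 0.05, against 11.6% and 10.6% of all microRNAs tested. There the lowest p-values were those of miR-24-3p (-0.43, edgeR adjusted p 0.426) and miR-10a-5p (1.11, edgeR adjusted p 0.426) in the myocardium, and of miR-27b-3p (0.77, edgeR adjusted p 0.206) and miR-34a-5p (0.81, edgeR adjusted p 0.331) in the amniotic fluid.

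Between the NC tissues 20 of 23 of the list passed for the myocardium against the serum, 17 of 20 for the amniotic fluid against the serum and 21 of 23 for the amniotic fluid against the myocardium. Of all microRNAs tested 78%, 79.1% and 72.4% passed, so nothing particular to the list is read from these counts. With library size alone the split moved to 11 higher and 7 lower for the amniotic fluid against the serum, and to 7 higher and 11 lower for the amniotic fluid against the myocardium. Against the serum, 13 of 23 were higher and 7 lower in the myocardium, led by miR-21-5p (5.82, edgeR adjusted p 4.33e-13) and miR-23a-3p (-3.81, edgeR adjusted p 3.08e-12). The direction of miR-23a-3p was thus that of miR-221-3p. In the amniotic fluid 7 of 20 were higher and 10 lower than in the serum, led by miR-92a-3p (-4.16, edgeR adjusted p 3.67e-11) and miR-10b-5p (-11.71, edgeR adjusted p 4.92e-10). Against the myocardium, 5 of 23 were higher and 16 lower in the amniotic fluid, led by miR-218a-5p (-6.31, edgeR adjusted p 1.92e-09) and miR-130a-3p (3.82, edgeR adjusted p 2.57e-09). MiR-130a-3p was higher there, as was miR-221-3p. The list's median log2 difference was 1.05, -0.89 and -2.30 in the 3 tissue comparisons, against 0.57, -0.03 and -0.99 over all microRNAs tested.

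Summed levels of marker microRNAs of cell types were set beside these values, with no test between groups. Summed CPM of the endothelial list (2 of 4 names listed, miR-126a-3p and miR-126a-5p) were between 10638 and 16523 in the NC, 16153 and 30570.3 in the VSD and 20135 and 29096 in the non-VSD myocardium, so the non-VSD libraries lay above all NC libraries. The red blood cell list (4 of 4) had a median of 29060 CPM in the NC myocardium, with a range of 3266 to 73069, against 8905 (4766 to 24223) in the VSD and 7704 (3051 to 34882) in the non-VSD group. The smooth muscle list (2 of 2) overlapped between the groups, with medians of 229774, 205931 and 227382 CPM. The white blood cell list (4 of 4) had medians of 1255 CPM in the NC, 694 in the VSD and 584 in the non-VSD myocardium, with overlapping ranges. The epithelial list (8 of 8) reached from 167 to 17532 CPM in the NC, 1910 to 21156 in the VSD and 296 to 7238 in the non-VSD myocardium. The part of these in the lower values of the members in the non-VSD myocardium was not tested, and in such whole-tissue samples fewer cells of a type and less RNA per cell cannot be told apart. In the amniotic fluid the red blood cell list reached from 15338 to 36170.2 CPM in the NC, 18210.3 to 129517 in the VSD and 26321 to 85934 in the non-VSD group, and the epithelial list (8 of 8) from 87439 to 147261, from 51363 to 155666 and from 53304 to 122349. In the serum the white blood cell list (4 of 4) reached from 37909 to 68155 CPM in NC libraries (median 51773) and from 58326 to 80536 in VSD libraries (median 71858). The part of these in the values of miR-221-3p and miR-222-3p was not tested. No marker listed was at 0 in every library of a group.

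Total reads on microRNAs were between 1694811 and 9371130 in the myocardium, 78188 and 331787 in the amniotic fluid and 147609 and 581350 in the serum. The heart and skeletal muscle markers (6 of 6) summed to between 5024 and 62416 CPM in the myocardium libraries and at most 5242 CPM in the amniotic fluid. In the serum they summed to between 3353 and 12594 CPM in the NC and between 1566 and 15243 CPM in the VSD group. The ranges of both fluids thus overlapped that of the myocardium. The counts of the NC samples were identical in the 2 tables of a tissue that list them, and they were used once.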

How the data were processed

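The authors sequenced small RNA libraries of myocardium, of amniotic fluid and of serum of the dams, converted the reads with bcl2fastq 2.19, as the submitters' processing notes name it, and filtered them with the Fastx-toolkit. The aligner, the microRNA annotation and the use of molecular identifiers are not given in the sources used here. Myocardium and serum libraries were made with the TruSeq kit and amniotic fluid libraries with the QIAseq kit. The deposited values used here are the raw counts of reads per mature microRNA. The tables also hold a normalized signal or CPM per sample made by the authors, and their group means as a signal. The authors' own comparisons, deposited as a log2 value, a ratio (fold change) and p-values, were not used.

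The analysis used edgeR 4.0.16 under R 4.3.3 (filterByExpr at its own limits of 10 counts and a total of 15, TMM scaling, quasi-likelihood test, Benjamini-Hochberg adjustment over all microRNAs tested). The fit of VSD against non-VSD used all 3 groups of the tissue, and every other fit the 2 groups compared. Log2 CPM used a prior count of 2. Read ratios had 0.5 read added to each arm and were compared by the exact permutation test, two-sided, with the 3432 possible groupings of 14 samples. A ratio difference was not reported where the rarer arm had fewer than 20 reads in both groups. Correlations used 100000 permutations within groups. An edgeR test between NC tissues was not given for a member that passed the filter within 1 of the 2 tissues only. For such a member no p-value of its read ratio between the myocardium and that fluid was given either. Fold changes and counts of calls were also computed, as far as each applied, with DESeq2 1.42.0 or with limma 3.58.1 (on CPM plus 1, log2), without TMM, without the filter, with a minimum of 10 counts per sample, with 3 or 2 groups in a fit, with the replicate number as a block, and with each sample omitted. Ratios had as alternatives another pseudocount, the median, the block, each sample omitted and, added after seeing the data, the read share in percent. Correlations were repeated with another scaling, without centring and without the 2 farthest samples, differences between tissues with another scaling, another prior and each sample omitted, and the likeness and marker values had no alternative. The fits were tested on simulated data with known changes.

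The members, the vascular and marker lists and the tests were chosen with earlier results of these data known. Named microRNAs were the members, miR-222-5p, the 3 most alike microRNAs per tissue and the 2 list members of lowest p in each comparison. Sequences and coordinates were matched by name to RefSeq (GRCr8), and all 4 arms matched. Permutation tests used scipy 1.17.1 under Python 3.11.15, and matplotlib 3.10.9 drew the figures.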

Additional observations from a re-analysis of the deposited data

Results flagged for a closer look

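In 1 of 24 groups of 7 samples examined, a sample stood far from the rest. It was replicate 3 of the VSD myocardium, whose log2 ratio of miR-221-3p to miR-221-5p reads was 1.52, while the other 6 VSD libraries lay between 3.07 and 3.65. The gap to the nearest library was 0.727 of the range of the group, above the 95% critical value of Dixon's test. By chance about 1 in 20 groups is picked out in this way. This was the smallest myocardium library, with 87 reads of miR-221-5p and 250 of miR-221-3p.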

How the results depend on the processing

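Of the members' fold changes, 110 of 118 values under another setting and 241 of 250 with a sample left out kept their direction and their side of the threshold, and so did 56 of 60 and 190 of 210 values of the read ratios. The cause of the changes below was not tested. With library size alone, miR-221-3p was 0.31 for VSD against NC in the myocardium and 0.83 for the NC amniotic fluid against serum. For miR-222-3p in the VSD myocardium, limma gave -0.019 and the replicate block -0.028. DESeq2 gave -0.59 for miR-221-5p in the non-VSD myocardium. Between the NC myocardium and serum, miR-222-3p was 0.60 with DESeq2, 0.70 with library size alone and 0.87 without a filter.

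The number of microRNAs with an adjusted p under 0.05 depended strongly on the setting. For the VSD myocardium it was 2, and 46 with DESeq2, 38 with library size alone, 1 without a filter, 15 with at least 10 counts in every sample, 0 with the replicate block and 25 with all groups in the fit. For the non-VSD myocardium it was 1, and in the same order 48, 22, 3, 8, 0 and 7, with 0 by limma. For the VSD amniotic fluid limma gave 1. For the non-VSD amniotic fluid it was 12, and 29 with DESeq2, 5 with limma and 2 with the block. For the serum DESeq2 gave 4, no filter 3 and the block 5. For VSD against non-VSD amniotic fluid DESeq2 gave 6, library size alone 1 and at least 10 counts 4. With at least 10 counts the NC tissues had 141 (myocardium and serum), 98 (amniotic fluid and serum) and 124 (amniotic fluid and myocardium), and without a filter amniotic fluid and serum had 289. DE-microRNAs ranged from 21 to 52 and 13 to 35 in the VSD and non-VSD myocardium, 7 to 84 and 19 to 109 in the VSD and non-VSD amniotic fluid, 4 to 34 in the serum, and 13 to 40 and 6 to 88 for VSD against non-VSD in the myocardium and amniotic fluid, mostly highest without a filter.

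The ratio of miR-221-3p to miR-221-5p in the VSD myocardium was -0.25 by the median (permutation p 0.138) and -0.47 with the block (p 0.109). The non-VSD myocardium differed from the NC group by 0.0265 percentage points in the share of miR-221-5p, against a log2 ratio that was higher by 0.04. The ratio of miR-222-3p to miR-221-3p in the VSD myocardium was -0.031 by the median. With library size alone the change in the VSD myocardium minus that in the amniotic fluid was 0.97 for miR-221-3p (permutation p 0.0292), and minus that in the serum it was 0.15 for miR-221-3p and 1.23 for miR-222-3p (permutation p 0.0392). The correlation of miR-221-3p with miR-222-3p was 0.41 without the 2 samples farthest out.

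With each sample left out in turn, values ran from -0.26 to 0.015 (miR-221-3p) and -0.14 to 0.26 (miR-222-3p) in the VSD myocardium, -0.037 to 0.14 for miR-221-3p in the serum, and 0.15 to 0.60 for miR-222-3p between the NC myocardium and serum. Counts at an adjusted p under 0.05 ran from 0 to 77 (VSD myocardium) and 0 to 19 (non-VSD myocardium), both highest without NC replicate 2, and 0 to 1 and 0 to 21 (VSD and non-VSD amniotic fluid), 0 to 2 (serum) and 0 to 3 (VSD against non-VSD amniotic fluid). The ratio of miR-221-3p to miR-221-5p in the myocardium ran from -0.57 to -0.21 for VSD against NC, -0.035 to 0.19 for non-VSD against NC and -0.66 to -0.26 for VSD against non-VSD, lowest without non-VSD replicate 1 (exact permutation p 0.0192). The ratio of miR-222-3p to miR-221-3p ran from -0.0030 to 0.28 for VSD against NC and -0.18 to 0.10 for VSD against non-VSD in the myocardium, and from -1.38 to -0.68 in the serum, where it was lowest without VSD replicate 6 (exact permutation p 0.0122) and highest without VSD replicate 2. The change of miR-221-3p in the amniotic fluid minus that in the serum ran from -0.87 to -0.52, and the change in the non-VSD myocardium minus that in the amniotic fluid from -0.89 to -0.47.

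The replicate numbers were not treated as pairs in the main tests. Same-numbered samples of a tissue had correlations of -0.625 to 0.472, and in no pair of groups were all 7 over 0.1. Between the VSD and non-VSD myocardium, and between the serum groups, 5 of 7 were over 0.1. These values cannot exclude a pairing, also under other numbers, and samples of different tissues were not compared in this way. Under the replicate block miR-221-5p between the VSD and non-VSD myocardium was 0.95 (edgeR p 0.0137), under a fold of 2, so that it was no longer a DE-microRNA, as with limma (0.83) and without VSD replicate 3 (0.71). MiR-221-3p between the VSD and non-VSD amniotic fluid became one without VSD replicate 6 (-1.03) or non-VSD replicate 1 (-1.02). The block changed no other call of a member's fold change. Depth limits miR-222-3p and miR-221-5p in both fluids: miR-222-3p in the serum could not be tested with at least 10 counts in every sample, or without NC replicate 6 or VSD replicate 6, where it fell under the filter.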
